A study of Mus musculus with 6 samples.

Results

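Oxidative phosphorylation is carried out by complexes I to V of the inner mitochondrial membrane. Complexes I to IV pass electrons from NADH and succinate to oxygen and, except for complex II, pump protons, and complex V uses the proton gradient to make ATP. A few core subunits are encoded by mitochondrial DNA (mtDNA), which is transcribed inside the organelle into long polycistronic RNAs from both strands. All remaining subunits are encoded in the nucleus and imported, so that each complex other than complex II is assembled from the products of both genomes.

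The subunit genes examined here were the genes whose symbol begins with a subunit prefix: mt-Nd, mt-Co, mt-Atp or mt-Cytb for mtDNA, and Ndufa, Ndufb, Ndufc, Ndufs or Ndufv with a number, Sdha to Sdhd, Uqcr, Cox4 to Cox8 with a letter, or Atp5 for the nucleus. This rule found 90 of the 13706 genes in the deposited table, 7 encoded by mtDNA and 83 in the nucleus. The mtDNA genes comprised 5 of complex I, 1 of complex III and 1 of complex IV, and mt-Nd3, mt-Nd4l, mt-Co2, mt-Co3, mt-Atp6 and mt-Atp8 are not analysed here. The nuclear genes comprised 39 of complex I, 4 of complex II, 8 of complex III, 15 of complex IV and 17 of complex V. The rule assigns Ndufa4 and its paralog Ndufa4l2 to complex I by name, although the NDUFA4 protein is now placed with complex IV. Ndufa12-ps, counted in complex I, is annotated as a pseudogene. It passed no test, and the counts of calls were the same over the other 82 nuclear genes. All 90 genes passed the filter on low values, and the rule used no measured value.

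RNA came from 6 libraries of primary mouse dermal fibroblasts, 2 in each of 3 groups. YTcKO+H151 cells carried floxed Yap1 (Yap1 fl/fl) and floxed Wwtr1 (Wwtr1 fl/fl) together with R26-CAG-CreER, and received 1 µM 4-hydroxytamoxifen and 1 µM H-151 for 72 hr. H-151, spelled once as H-15 in the treatment label, is an inhibitor of STING, the adaptor of the cytosolic DNA-sensing pathway. YTcKO cells carried the same alleles and received 4-hydroxytamoxifen alone. Control cells carried both floxed genes without the Cre and received 4-hydroxytamoxifen as well, so the presence of Cre and the loss of YAP and TAZ cannot be told apart, and H-151 was not given to cells that kept YAP and TAZ. Yap1 encodes YAP and Wwtr1 encodes TAZ, coactivators of transcription that the Hippo pathway restrains. Whether a group's 2 libraries stem from different cultures or animals is not stated in the labels, so every p-value below measures the spread between these libraries, which may be technical.

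The libraries were made with QuantSeq, which reads a tag near the 3' end of polyadenylated RNA, and held 12444986 to 15308100 reads in the listed genes. Values are scaled CPM, a read count relative to library size that was scaled by the authors with an effective library size and not divided by gene length, so levels are compared between libraries and not between genes. A change is the difference in log2(scaled CPM + 1), which understates the change of low genes. It was tested with limma across 13648 genes, with a Benjamini-Hochberg adjusted p under 0.05 as the threshold. Wwtr1 was at 3.07 and 4.00 scaled CPM in YTcKO+H151 libraries, 4.79 and 5.03 in YTcKO libraries and 213 and 218 in Control libraries. Yap1 was at 45.3 and 42.4 in YTcKO+H151 libraries, 66.4 and 68.3 in YTcKO libraries and 122 and 128 in Control libraries. All 10 fibroblast markers examined were in the deposited table, as were all 10 macrophage markers, so being listed does not identify the cells. Each of the 3 groups, YTcKO+H151 included, takes part in 2 of the comparisons below, so the comparisons are not independent of one another.

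The annotated 3' ends of the mtDNA genes are shown because a 3' tag method reads near the end of an RNA. Whether the RNAs end at these annotated positions was not tested. The 6 genes read from the plus strand and mt-Nd6, the one read from the minus strand, end as follows on chrM of GRCm38 (the build also called mm10), 5' to 3' along each gene, from GENCODE M21 transcripts. Capitals mark the final codon or, where the gene ends in an incomplete codon that the poly(A) tail completes, its last base. In mt-Nd5 and mt-Nd6 capitals mark the bases that both genes share on opposite strands.
mt-Nd1, chrM:3678-3707, plus: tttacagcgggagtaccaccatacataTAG
mt-Nd2, chrM:4922-4951, plus: ctacccctagccccccaactaattaccTAG
mt-Co1, chrM:6843-6872, plus: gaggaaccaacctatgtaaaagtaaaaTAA
mt-Nd4, chrM:11515-11544, plus: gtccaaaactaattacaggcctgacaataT
mt-Nd5, chrM:13536-13565, plus: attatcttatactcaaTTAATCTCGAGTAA
mt-Nd6, chrM:13552-13581, minus: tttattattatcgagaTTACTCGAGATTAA
mt-Cytb, chrM:15259-15288, plus: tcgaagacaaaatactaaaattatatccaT

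As annotated, mt-Nd5 and mt-Nd6 overlap tail to tail over 14 bases, chrM:13552-13565. The strand setting of the authors' counting is not given in the sources used here. Reads of either strand across this overlap therefore cannot be assigned with certainty. The same holds beyond the overlap wherever an RNA of one gene runs past its annotated end into the other. The last 100 bases of mt-Nd2, mt-Co1 and mt-Nd6 also have near-identical copies elsewhere in the annotation (at least 95% identity over at least 90 bases), and the authors' counting could split reads between them. Among the nuclear genes the same holds for Cox7c, Atp5g2 and Ndufa12-ps. The levels of these 6 genes are therefore uncertain. The longest run of A within the gene, where an oligo-dT primer could also anneal, was 3 bases in mt-Nd6 and 5 to 8 bases in the plus-strand genes.

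Most calls among the mtDNA genes came from comparisons with the cells given H-151. In YTcKO+H151 against YTcKO, 5 of 7 mtDNA genes rose, against 2 that rose and 7 that fell of 83 nuclear genes, where 40.8% of all genes tested passed the threshold (19.4% higher and 21.4% lower). Against Control, 6 mtDNA genes of the YTcKO+H151 cells rose and mt-Nd6 fell, against 8 that rose and 1 that fell of the nuclear genes, with a background of 22.9% (11.5% higher and 11.4% lower). In YTcKO against Control, 1 mtDNA gene rose, against 12 that rose and 1 that fell of the nuclear genes, with a background of 32.4% (18.2% higher and 14.2% lower). The share of nuclear genes called, 10.8%, 10.8% and 15.7% in the same order, was below the background each time. The median change of the mtDNA genes was 0.32, 0.47 and 0.09 in the same order, and that of the nuclear genes was -0.03, 0.08 and 0.12, beside 0.02, 0.00 and -0.01 for all genes tested.

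The summed level of the mtDNA genes can be set against that of the nuclear subunit genes within each library, a ratio that no scaling of the libraries alters. It was 2.503 and 2.33 in YTcKO+H151 libraries, 1.94 and 1.79 in YTcKO libraries and 1.81 and 1.70 in Control libraries. Both YTcKO+H151 libraries lay above all others, while YTcKO and Control libraries overlapped. The mean was 2.42 ± 0.12 in YTcKO+H151, 1.86 ± 0.11 in YTcKO and 1.76 ± 0.08 in Control (SD, n = 2 libraries per group). Without mt-Nd4, which supplies a large part of the mtDNA sum, the ratio was 1.41 and 1.41 in YTcKO+H151 libraries, 1.13 and 1.03 in YTcKO libraries and 1.08 and 1.07 in Control libraries. The mtDNA genes took 3.68% and 3.30% of reads in YTcKO+H151 libraries, 2.503% and 2.37% in YTcKO libraries and 2.52% and 2.23% in Control libraries. The nuclear subunit genes took 1.47% and 1.41% in YTcKO+H151 libraries, 1.29% and 1.33% in YTcKO libraries and 1.39% and 1.31% in Control libraries.

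mt-Nd1, at chrM:2751-3707 (plus strand), encodes a membrane subunit of complex I near its quinone site. It was at 4211 and 4001 scaled CPM in YTcKO+H151 libraries, 3364 and 3203 in YTcKO libraries and 2955 and 2801 in Control libraries. The 3 groups did not overlap. It rose by 0.32 ± 0.08 (log2 change ± SE; limma adjusted p = 0.00352) in YTcKO+H151 against YTcKO and by 0.51 ± 0.08 (adjusted p = 0.000167) against Control, and the change in YTcKO against Control was 0.19 ± 0.08 (adjusted p = 0.0762).

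mt-Nd2, at chrM:3914-4951 (plus strand), encodes another membrane subunit of complex I. It was at 5956 and 6951 in YTcKO+H151 libraries, 5017 and 4122 in YTcKO libraries and 4248 and 4284 in Control libraries. Both YTcKO+H151 libraries were above the rest, and the Control values lay between those of the YTcKO libraries. It rose by 0.50 ± 0.10 (adjusted p = 0.000983) against YTcKO and by 0.59 ± 0.10 (adjusted p = 0.000504) against Control, while YTcKO against Control differed by 0.09 ± 0.10 (adjusted p = 0.537).

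mt-Nd4, at chrM:10167-11544 (plus strand), encodes a proton-pumping subunit of complex I. It was at 15377 and 12524 in YTcKO+H151 libraries, 11303 and 10876 in YTcKO libraries and 9794 and 7974 in Control libraries. The groups did not overlap, but the spread within YTcKO+H151 (SD 2017 around a mean of 13950, n = 2) and within Control (SD 1287 around 8884, n = 2) was wide. It rose in all 3 comparisons, by 0.32 ± 0.12 (adjusted p = 0.0433) in YTcKO+H151 against YTcKO, 0.65 ± 0.12 (adjusted p = 0.000916) in YTcKO+H151 against Control and 0.33 ± 0.12 (adjusted p = 0.0499) in YTcKO against Control. The last of these was the mtDNA call of that comparison and had an adjusted p of 0.429 without Control replicate 2, 0.293 without YTcKO replicate 1 and 0.216 without YTcKO replicate 2. The first was lost without YTcKO replicate 1 (0.19), YTcKO replicate 2 (0.268) or YTcKO+H151 replicate 1 (0.237).

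mt-Nd5, at chrM:11742-13565 (plus strand), encodes a further proton-pumping subunit of complex I. It was at 921 and 901 in YTcKO+H151 libraries, 727 and 661 in YTcKO libraries and 666 and 653 in Control libraries. Both YTcKO+H151 libraries were above the others, and YTcKO overlapped Control. It rose by 0.39 ± 0.07 (adjusted p = 0.000182) against YTcKO and by 0.47 ± 0.07 (adjusted p = 9.52e-05) against Control, and both calls held in every alternative tried.

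mt-Nd6, at chrM:13552-14070 (minus strand), encodes a membrane subunit of complex I and is the only member on its strand. It was at 6.79 and 8.19 in YTcKO+H151 libraries, 9.58 and 10.05 in YTcKO libraries and 11.5 and 12.04 in Control libraries, from 104 to 167 reads per library. The order of the 3 groups, which did not overlap, was the reverse of that of mt-Nd1 and mt-Nd4. It fell by 0.59 ± 0.15 on the log2 scale (adjusted p = 0.00906) in YTcKO+H151 against Control. This call was lost without Control replicate 2 (adjusted p = 0.0741) and without YTcKO+H151 replicate 1 (adjusted p = 0.0721). The change was -0.35 ± 0.15 (adjusted p = 0.0747, 95% confidence interval -0.67 to -0.03) against YTcKO and -0.24 ± 0.15 (adjusted p = 0.246) in YTcKO against Control. The ratio of mt-Nd5 to its overlapping opposite-strand neighbour mt-Nd6 was 135 and 110 in YTcKO+H151 libraries, 75.9 and 65.8 in YTcKO libraries and 57.8 and 54.2 in Control libraries, again without overlap between the 3 groups. The limits given above on assigning reads between these genes apply to mt-Nd6 and to this ratio. Both also depend on how far each RNA carries a poly(A) tail, which was not measured. The level of mt-Nd6 and its changes therefore need not be those of its total RNA.

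mt-Cytb, at chrM:14145-15288 (plus strand), encodes cytochrome b of complex III. It was at 7791 and 6304 in YTcKO+H151 libraries, 5937 and 6077 in YTcKO libraries and 5869 and 5184 in Control libraries. The groups did not overlap, and the YTcKO+H151 libraries differed most from each other. It rose by 0.35 ± 0.11 (adjusted p = 0.0259) in YTcKO+H151 against Control, with changes of 0.22 ± 0.11 (adjusted p = 0.105) against YTcKO and 0.12 ± 0.11 (adjusted p = 0.407) in YTcKO against Control.

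mt-Co1, at chrM:5328-6872 (plus strand), encodes the catalytic subunit of cytochrome c oxidase, complex IV. It was at 883 and 865 in YTcKO+H151 libraries, 769.6 and 692 in YTcKO libraries and 715 and 744 in Control libraries. Both YTcKO+H151 libraries lay above the other 4, whose groups overlapped. It rose by 0.26 ± 0.07 against YTcKO (adjusted p = 0.00652) and by 0.26 ± 0.07 against Control (adjusted p = 0.0114), while YTcKO and Control differed by 0.00 ± 0.07 (adjusted p = 0.989).

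**Figure D1:**
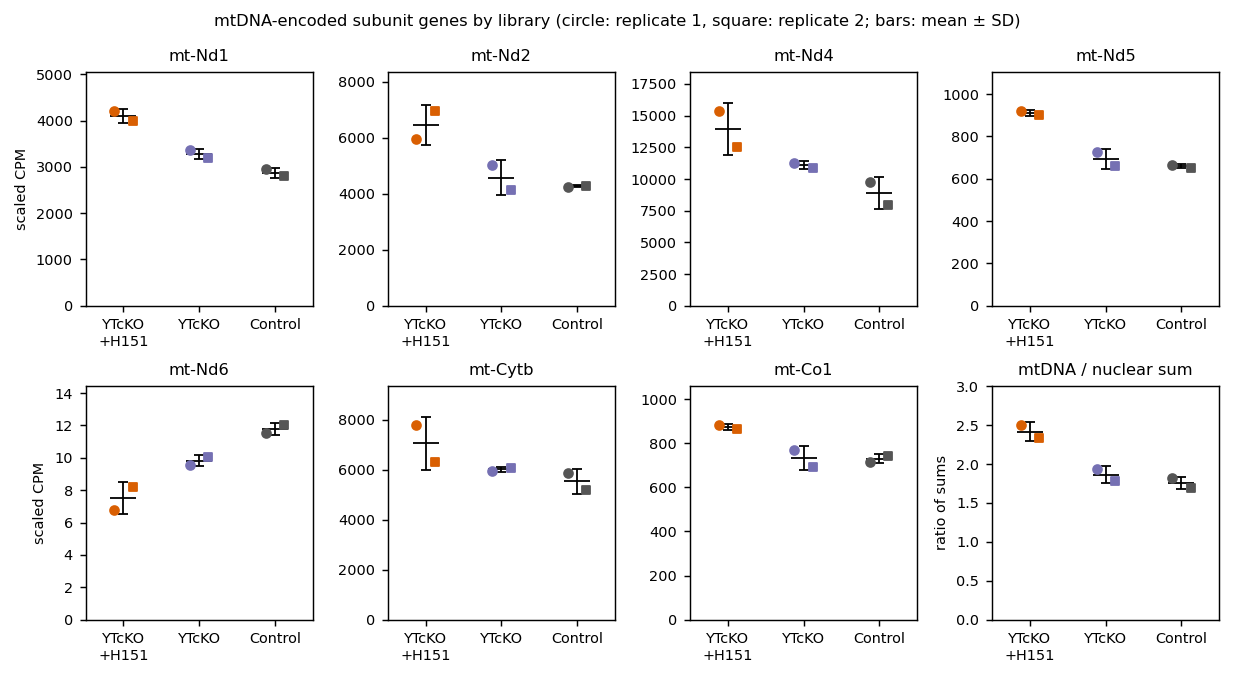
Levels of the 7 mtDNA-encoded subunit genes in scaled CPM, and the ratio of the mtDNA-encoded to the nuclear-encoded sum, in each library (points) with the mean and SD of each group of 2 (bars). Both YTcKO+H151 libraries lie above all others for mt-Nd1, mt-Nd2, mt-Nd4, mt-Nd5, mt-Cytb, mt-Co1 and the ratio, and below all others for mt-Nd6, where Control libraries are highest at 11.5 and 12.04.

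All 7 mtDNA genes were without overlap between YTcKO+H151 and YTcKO, 6 higher and 1 lower (background 69.2%, of which 35.5% higher and 33.7% lower), and likewise between YTcKO+H151 and Control (background 59%, of which 29.5% higher and 29.5% lower). Between YTcKO and Control, 3 were higher without overlap, 1 was lower and 3 overlapped (background 66.9%, of which 33.4% higher and 33.5% lower). Without YTcKO replicate 2, the count of mtDNA genes that rose in YTcKO+H151 against YTcKO was 1 (mt-Nd5) instead of 5, with mt-Nd1 at an adjusted p of 0.0842, mt-Nd2 at 0.0721 and mt-Co1 at 0.144. The calls of mt-Nd1, mt-Nd2, mt-Nd4 and mt-Nd5 in YTcKO+H151 against Control held in every alternative. mt-Co1 had an adjusted p of 0.0993 there without Control replicate 1. mt-Cytb had 0.246 without Control replicate 2, 0.169 without YTcKO+H151 replicate 1 and 0.0934 to 0.0936 without either YTcKO library.

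The mitochondrial ribosomal RNAs, transcribed from the same strand of mtDNA upstream of the mRNAs, spread more within groups. The rows mt-Rnr1 and mt-Rnr2 summed to 32111 and 38162 scaled CPM in YTcKO+H151 libraries, 26817 and 22043 in YTcKO libraries and 24024 and 29532 in Control libraries. YTcKO and Control overlapped, and YTcKO+H151 lay above both. mt-Rnr2, the large ribosomal RNA, rose by 0.54 ± 0.14 (adjusted p = 0.00475) against YTcKO and 0.42 ± 0.14 (adjusted p = 0.0342) against Control. mt-Rnr1, the small ribosomal RNA, rose by 0.47 ± 0.14 (adjusted p = 0.0132) against YTcKO and differed by 0.29 ± 0.14 (adjusted p = 0.169) from Control. Divided by the sum of the mtDNA-encoded mRNAs, the ribosomal RNA sum was 0.914 and 1.21 in YTcKO+H151 libraries, 0.989 and 0.860 in YTcKO libraries and 0.990 and 1.36 in Control libraries. YTcKO+H151 overlapped both other groups, and both YTcKO libraries lay below both Control libraries. The 10 mitochondrial tRNA rows summed to 41.7 and 61.6 in YTcKO+H151 libraries, 40.1 and 30.6 in YTcKO libraries and 35.4 and 36.8 in Control libraries. Some had few reads, such as mt-Tv (7 to 57 per library) and mt-Ta (8 to 21), which were not tested. The rows did not all move alike. mt-Tw, with 12 to 44 reads, had changes of -0.73 (adjusted p = 0.0261) in YTcKO against Control and -0.78 (adjusted p = 0.0244) in YTcKO+H151 against Control. In YTcKO+H151, mt-Tl2 and mt-Tt rose against Control, and mt-Ti and mt-Tm rose against YTcKO. Because QuantSeq reads polyadenylated RNA, the ribosomal and tRNA rows need not measure the total amount of these RNAs. The same limit applies to the mtDNA-encoded mRNAs, mt-Nd6 included.

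The summed macrophage, adipocyte, endothelial and skeletal muscle markers were highest in YTcKO+H151 libraries, as were most mtDNA genes. The fibroblast, keratinocyte, and melanocyte and Schwann cell sums were not. The 10 macrophage markers summed to 3691 and 2975 scaled CPM in YTcKO+H151 libraries, 1433 and 1451 in YTcKO libraries and 1366 and 1145 in Control libraries, and all 10 rose in YTcKO+H151 against YTcKO. In that comparison 19.4% of all genes tested were called higher and 21.4% lower. Of 9 adipocyte markers 7 were in the table, summing to 4318 and 3205 in YTcKO+H151 libraries, 1214 and 1390 in YTcKO libraries and 1593 and 1352 in Control libraries, and all 7 rose in that comparison. The 10 fibroblast markers summed to 26314 and 24367 in YTcKO+H151 libraries, 37624 and 39522 in YTcKO libraries and 32965 and 33533 in Control libraries, with 4 higher and 6 lower in YTcKO+H151 against YTcKO. The 7 listed endothelial markers summed to 23.1 and 20.3 in YTcKO+H151 libraries, 13.8 and 12.7 in YTcKO libraries and 19.9 and 18.2 in Control libraries, and the 4 listed skeletal muscle markers stayed between 18.5 and 26.5 in all 6 libraries. The 7 listed melanocyte and Schwann cell markers summed to 101 and 84.0 in YTcKO+H151 libraries, 179 and 192 in YTcKO libraries and 90.01 and 81.2 in Control libraries, and the 2 listed keratinocyte markers to between 13.9 and 21.9. The part of these markers in the result was not tested, and in bulk samples fewer cells of a type and less RNA per cell cannot be told apart.

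The nuclear-encoded subunit genes changed little. Their median absolute change was 0.13 in YTcKO against Control, 0.08 in YTcKO+H151 against YTcKO and 0.10 in YTcKO+H151 against Control, beside 0.22, 0.26 and 0.18 for all genes tested. A median absolute change grows with noise, and the median SE was 0.07 for these genes and 0.12 for all genes tested. The gap is therefore not a measure of response alone. In YTcKO against Control, 68 of the 83 changes were above 0, and the summed nuclear level was 13994 and 14363 scaled CPM in YTcKO libraries against 13370 and 12750 in Control libraries. The YTcKO+H151 libraries, at 14040 and 13538, overlapped those of YTcKO and lay above Control. This direction depended on the scaling. With libraries scaled to their total reads, 2 nuclear genes rose and 6 fell in YTcKO against Control, and 30 rose and 3 fell in YTcKO+H151 against YTcKO. With libraries scaled to their reads from nuclear genes, the counts were 1 and 7, and 37 and 2. Scaled to the median gene, they were 6 and 3, and 4 and 3. Between YTcKO+H151 and Control they were 12 and 1, 16 and 1, and 5 and 1 in the same order of scalings. Total-read scaling moved the median of all genes itself to -0.16 and 0.18, and nuclear-read scaling to -0.17 and 0.21. Relative to that median, under every scaling, the nuclear median was 0.11 to 0.12 above it in YTcKO against Control, -0.04 to -0.03 in YTcKO+H151 against YTcKO and 0.08 to 0.09 in YTcKO+H151 against Control. The mtDNA median was 0.09 to 0.10, 0.31 to 0.32 and 0.47 in the same order. A scaling shifts all genes of a library alike, apart from the pseudocount. These differences from the median therefore hold across scalings by construction, which is no test of them.

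A fit without 1 library has 1 left in that group, so a lost call can reflect less power. It does not trace the call to that library. In YTcKO+H151 against YTcKO the change of Atp5b stayed at -0.17 without either Control library, yet its call was lost. With this limit, the count of nuclear calls also changed when a library was left out. The 12 that rose in YTcKO against Control became 2 without Control replicate 2, 3 without YTcKO replicate 1 and 2 without YTcKO replicate 2, and 19 and 20 without YTcKO+H151 replicate 1 and 2. The 7 that fell in YTcKO+H151 against YTcKO became 2 and 3 without YTcKO replicate 1 and 2, and 11 without YTcKO+H151 replicate 1, and the 2 that rose became 1 without either YTcKO library and 5 without YTcKO+H151 replicate 1. The 8 that rose in YTcKO+H151 against Control became 5 and 1 without Control replicate 1 and 2, and 5 without either YTcKO library.

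**Figure D2:**
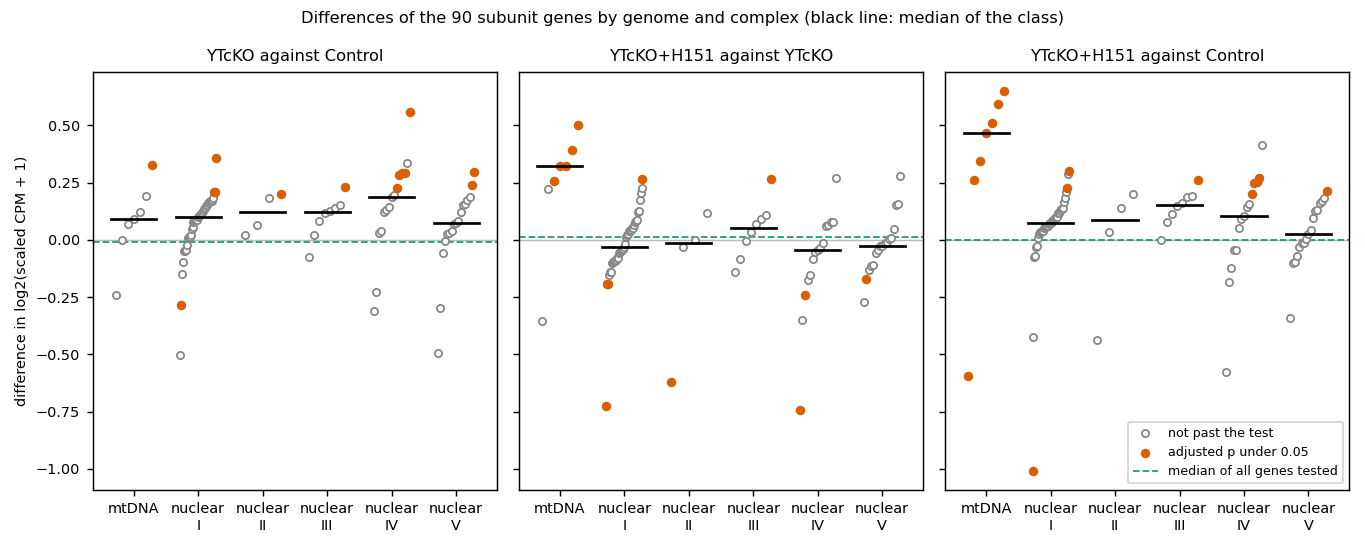
Difference in log2(scaled CPM + 1) of each of the 90 subunit genes (points, filled where the adjusted p is under 0.05) in the 3 comparisons, split into mtDNA-encoded genes and nuclear-encoded genes of complexes I to V, with the median of each class (black line) and of all genes tested (dashed line). The mtDNA class sits at a median of 0.32 and 0.47 in the comparisons with YTcKO+H151, while nuclear medians stay between -0.04 and 0.19. In YTcKO against Control the overall nuclear median of 0.12 becomes -0.05 when libraries are scaled to total reads or to nuclear reads.

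Complex I takes electrons from NADH. Of its 39 nuclear genes, 3 rose and 1 fell in YTcKO against Control, 1 rose and 3 fell in YTcKO+H151 against YTcKO, and 2 rose and 1 fell in YTcKO+H151 against Control. The shares called, 10.3%, 10.3% and 7.69% in this order, were below those of all genes tested, 32.4%, 40.8% and 22.9%. The member that moved furthest was Ndufa4l2 (chr10:127514967-127517154, plus strand), a paralog of Ndufa4 known as a target of hypoxia-inducible factor. It was at 49.8 and 55.3 scaled CPM in YTcKO+H151 libraries, 97.4 and 78.6 in YTcKO libraries and 107 and 107 in Control libraries. The groups did not overlap. It fell by 0.73 ± 0.09 on the log2 scale (adjusted p = 1.13e-05) in YTcKO+H151 against YTcKO and by 1.01 ± 0.09 (adjusted p = 1.1e-06) against Control, and both calls held in every alternative. In YTcKO against Control it fell by 0.28 ± 0.09 (adjusted p = 0.0307), a call lost without YTcKO replicate 2 (-0.13, adjusted p = 0.407) and without Control replicate 1 (adjusted p = 0.115) or 2 (adjusted p = 0.124).

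Ndufa4 itself was at 115 and 107 in YTcKO+H151 libraries, 95.9 and 114 in YTcKO libraries and 106 and 109.7 in Control libraries. Its groups overlapped, with changes of 0.09 (95% confidence interval -0.09 to 0.26) in YTcKO+H151 against YTcKO and 0.04 (-0.14 to 0.21) against Control. The ratio of Ndufa4l2 to Ndufa4 was 0.433 and 0.518 in YTcKO+H151 libraries, 1.02 and 0.692 in YTcKO libraries and 1.00 and 0.973 in Control libraries. Both YTcKO+H151 libraries were below the rest, and YTcKO overlapped Control.

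Ndufb1-ps (chr12:101968090-101977068, minus strand), an annotated non-coding transcript in GENCODE M21 that RefSeq lists as the protein-coding accessory subunit gene Ndufb1, was at 150.8 and 142 in YTcKO+H151 libraries, 175 and 161 in YTcKO libraries and 135 and 126 in Control libraries. YTcKO libraries were highest and no groups overlapped. It rose by 0.36 ± 0.07 (adjusted p = 0.000991) in YTcKO against Control under every alternative and fell by 0.19 ± 0.07 on the log2 scale (adjusted p = 0.0409) in YTcKO+H151 against YTcKO, where the change was 0.02 (adjusted p = 0.826) with scaling to nuclear reads. The fall lost its call without either Control library (adjusted p = 0.0513 and 0.0517), without YTcKO replicate 1 (0.305) or 2 (0.0569) and without YTcKO+H151 replicate 2 (0.157).

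Ndufb10, an accessory subunit of the membrane arm, was at 80.6 and 79.1 in YTcKO+H151 libraries, 63.6 and 68.8 in YTcKO libraries and 72.8 and 74.2 in Control libraries. YTcKO libraries were lowest here. It rose by 0.27 ± 0.08 (adjusted p = 0.0105) in YTcKO+H151 against YTcKO, with an adjusted p of 0.115 without YTcKO replicate 1. Ndufb8, also of the membrane arm, rose by 0.30 ± 0.07 (adjusted p = 0.00617) in YTcKO+H151 against Control, with an adjusted p of 0.0805 without Control replicate 2. Ndufa2, the nuclear complex I gene with the highest mean, was at 286 and 289 in YTcKO+H151 libraries, 309.6 and 308 in YTcKO libraries and 289 and 271 in Control libraries and passed no test. The remaining calls of complex I, named after their values were seen, were Ndufb6 (0.21, adjusted p = 0.0458) and Ndufa6 (0.21, adjusted p = 0.0491) in YTcKO against Control, Ndufb11 (-0.19, adjusted p = 0.0488) in YTcKO+H151 against YTcKO, and Ndufb9 (0.22, adjusted p = 0.0236) in YTcKO+H151 against Control. All are accessory subunits. The calls of Ndufb6 and Ndufa6 were lost without any one Control or YTcKO library, with adjusted p from 0.0514 to 0.336. The call of Ndufb11 was lost without any one library other than YTcKO+H151 replicate 1 (0.0662 to 0.263), and its change was 0.02 with scaling to nuclear reads. The call of Ndufb9 was lost without Control replicate 1 (0.0939), Control replicate 2 (0.129) or YTcKO+H151 replicate 1 (0.0842).

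Complex II, succinate dehydrogenase, has no mtDNA-encoded subunit. The share of its 4 genes called was 25%, 25% and 0% in YTcKO against Control, YTcKO+H151 against YTcKO and YTcKO+H151 against Control. For all genes tested the share was 32.4%, 40.8% and 22.9%. Sdhb (chr4:140961203-140979193, plus strand), the iron-sulfur subunit, was the one of its 4 genes that rose in YTcKO against Control. It was at 198 and 180.5 in YTcKO+H151 libraries, 190.3 and 188 in YTcKO libraries and 171 and 158 in Control libraries, so that Control was lowest without overlap. The rise was 0.20 ± 0.07 (adjusted p = 0.0388), with 0.276 without Control replicate 2, 0.187 without YTcKO replicate 1 and 0.146 without YTcKO replicate 2. Sdhd (chr9:50596357-50603812, minus strand), a membrane anchor, was the one that fell in YTcKO+H151 against YTcKO. It was at 13.6 and 22.1 in YTcKO+H151 libraries, 29.6 and 25.1 in YTcKO libraries and 21.1 and 27.1 in Control libraries. The YTcKO+H151 libraries lay below those of YTcKO and overlapped Control. It fell by 0.62 ± 0.18 on the log2 scale (adjusted p = 0.00984), with a change of -0.29 (adjusted p = 0.134) without YTcKO+H151 replicate 1 and -0.51 (adjusted p = 0.147) without YTcKO replicate 1. Sdhc, the other anchor and the gene of this complex with the highest mean, passed no test. Between YTcKO+H151 and Control limma called 0 of the 4, with 2 at an unadjusted p under 0.05, and edgeR and DESeq2 on the recovered reads also called 0.

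Complex III, cytochrome bc1, passes electrons from ubiquinol to cytochrome c. Of its 8 nuclear genes 1 rose in each comparison (12.5%). This share was below that of all genes tested, 32.4% in YTcKO against Control, 40.8% in YTcKO+H151 against YTcKO and 22.9% in YTcKO+H151 against Control. Uqcrc2, a core subunit, rose by 0.23 ± 0.07 (adjusted p = 0.0249) in YTcKO against Control, with 158 and 169 in YTcKO libraries and 147 and 132 in Control libraries. Uqcr11, a small subunit, was at 89.0 and 89.9 in YTcKO+H151 libraries, 74.3 and 74.2 in YTcKO libraries and 77.2 and 79.2 in Control libraries, and YTcKO+H151 was highest and YTcKO lowest, without overlap. It rose by 0.27 ± 0.07 (adjusted p = 0.00751) in YTcKO+H151 against YTcKO. Uqcrh, the hinge protein at the cytochrome c1 side, was at 348 and 353 in YTcKO+H151 libraries, 328 and 321 in YTcKO libraries and 279 and 307 in Control libraries, and rose by 0.26 ± 0.07 (adjusted p = 0.00869) in YTcKO+H151 against Control. Uqcrq, the gene of complex III with the highest mean, passed no test. Without 1 library these calls were lost as follows: Uqcrc2 without Control replicate 2 (adjusted p = 0.261), YTcKO replicate 1 (0.0606) or YTcKO replicate 2 (0.222), Uqcr11 without YTcKO replicate 2 (0.0513) and Uqcrh without Control replicate 1 (0.13).

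Complex IV, cytochrome c oxidase, reduces oxygen, and its nuclear subunits include tissue isoforms. Of its 15 nuclear genes 5 rose in YTcKO against Control (33.3%, where 18.2% of all genes were called higher). In YTcKO+H151 against YTcKO 2 fell (13.3%, where 21.4% of all genes were called lower). In YTcKO+H151 against Control 4 rose (26.7%, where 11.5% of all genes were called higher). With scaling to total reads 1 of the 15 rose in YTcKO against Control, and 4 rose and 1 fell in YTcKO+H151 against YTcKO. With scaling to nuclear reads 0 of the 15 rose in YTcKO against Control, and 5 rose and 1 fell in YTcKO+H151 against YTcKO. The 5 rises became 1 without Control replicate 2, 2 without YTcKO replicate 1 and 1 without YTcKO replicate 2. The 4 rises against Control became 0 without Control replicate 2 and 2 without either YTcKO library, and the 2 falls became 1 without either YTcKO library. Cox5a (chr9:57521274-57532426, plus strand), a matrix-side subunit, was at 266 and 256 in YTcKO+H151 libraries, 259 and 268 in YTcKO libraries and 222 and 210.4 in Control libraries. YTcKO+H151 and YTcKO overlapped and both lay above Control. It rose by 0.28 ± 0.06 (adjusted p = 0.0029) in YTcKO against Control and by 0.27 ± 0.06 (adjusted p = 0.00607) in YTcKO+H151 against Control, with an adjusted p of 0.0544 for the first without YTcKO replicate 2 and 0.0856 for the second without Control replicate 2.

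Cox6a2 (chr7:128205435-128206387, minus strand), the isoform of the VIa subunit known from heart and skeletal muscle, was low, with 102 to 150 reads per library. It was at 7.38 and 7.13 in YTcKO+H151 libraries, 12.9 and 12.8 in YTcKO libraries and 9.54 and 7.35 in Control libraries. YTcKO was highest without overlap, and YTcKO+H151 overlapped Control. It fell by 0.74 ± 0.16 on the log2 scale (adjusted p = 0.00126) in YTcKO+H151 against YTcKO, a call that held in every alternative that tested it, the filter on a mean of at least 10 having left it out. It rose by 0.56 ± 0.16 (adjusted p = 0.0121) in YTcKO against Control, with 0.39 (adjusted p = 0.155) without Control replicate 2 and adjusted p of 0.0775 and 0.0731 without YTcKO replicate 1 and 2. The widely expressed isoform Cox6a1 was at 442 and 459 in YTcKO+H151 libraries, 499 and 504 in YTcKO libraries and 500.3 and 481 in Control libraries, with changes of -0.15 ± 0.06 (adjusted p = 0.0595) in YTcKO+H151 against YTcKO and 0.03 ± 0.06 (adjusted p = 0.738) in YTcKO against Control.

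The VIIa subunit isoforms had their lowest values in Control libraries. Cox7a2, the widely expressed form, was at 294 and 285 in YTcKO+H151 libraries, 302 and 294 in YTcKO libraries and 254 and 233 in Control libraries, and rose by 0.29 ± 0.07 (adjusted p = 0.00262) in YTcKO against Control and by 0.25 ± 0.07 (adjusted p = 0.0116) in YTcKO+H151 against Control. Cox7a1, the heart and muscle form, was at 6.34 and 7.32 in YTcKO+H151 libraries, 6.01 and 6.81 in YTcKO libraries and 5.06 and 4.68 in Control libraries, with changes of 0.33 ± 0.17 (adjusted p = 0.149) and 0.41 ± 0.17 (adjusted p = 0.0968) in the same comparisons. Cox7a2l, which takes part in joining complexes III and IV, rose by 0.25 ± 0.08 (adjusted p = 0.0386) in YTcKO+H151 against Control. Without Control replicate 2, Cox7a2 had adjusted p of 0.0569 and 0.164 in these comparisons and Cox7a2l had 0.227. Cox7a2l also had an adjusted p above the threshold without each other library except YTcKO+H151 replicate 1, from 0.0679 to 0.173.

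Cox4i1, the common form of subunit IV, rose by 0.20 ± 0.07 (adjusted p = 0.0458) in YTcKO+H151 against Control, with adjusted p from 0.0833 to 0.275 without any one library other than YTcKO+H151 replicate 1. Its paralog Cox4i2, known from lung and from hypoxia, had 5 to 22 reads per library and passed no test, and neither did Cox6b1, Cox6b2 or Cox8a. The remaining calls, named after their values were seen, were Cox5b (0.23 ± 0.07, adjusted p = 0.0205) and Cox7c (0.29 ± 0.09, adjusted p = 0.0154) in YTcKO against Control, and Cox7c (-0.24 ± 0.09, adjusted p = 0.0345) in YTcKO+H151 against YTcKO. The rise of Cox5b was lost without Control replicate 2 (adjusted p = 0.214), YTcKO replicate 1 (0.1) or YTcKO replicate 2 (0.122). The rise of Cox7c was lost without the same libraries (0.176, 0.0606 and 0.179), and its fall without YTcKO replicate 1 (0.0878), YTcKO replicate 2 (0.256) or YTcKO+H151 replicate 2 (0.317). Cox7c was at 157 and 131 in YTcKO+H151 libraries, 164 and 176 in YTcKO libraries and 146 and 131 in Control libraries.

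Complex V, ATP synthase, was the complex with the lowest nuclear median in YTcKO against Control, 0.07, with 2 of 17 genes that rose. The shares called in YTcKO against Control, YTcKO+H151 against YTcKO and YTcKO+H151 against Control were 11.8%, 5.88% and 5.88%. Those of all genes tested were 32.4%, 40.8% and 22.9%. Atp5mpl, a small subunit of the membrane part, was at 222 and 222 in YTcKO+H151 libraries, 224 and 229 in YTcKO libraries and 197 and 186 in Control libraries. It rose by 0.24 ± 0.06 (adjusted p = 0.00843) in YTcKO against Control and by 0.21 ± 0.06 (adjusted p = 0.0237) in YTcKO+H151 against Control, where it was the one call. The first had adjusted p from 0.0524 to 0.0974, and the second from 0.0526 to 0.198, without Control replicate 2 or either YTcKO library. Atp5md, another small membrane subunit, rose by 0.30 ± 0.11 (adjusted p = 0.0449) in YTcKO against Control, with 0.459 without Control replicate 2, 0.098 without YTcKO replicate 1 and 0.35 without YTcKO replicate 2.

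Atp5b, the catalytic beta subunit, was at 437 and 436 in YTcKO+H151 libraries, 498 and 484 in YTcKO libraries and 458 and 479 in Control libraries. The groups did not overlap. It fell by 0.17 ± 0.06 on the log2 scale (adjusted p = 0.0404) in YTcKO+H151 against YTcKO, but the change was 0.01 with scaling to total reads and 0.05 with scaling to nuclear reads, and the adjusted p was 0.0553 to 0.214 without any one of the 6 libraries. Of the 3 genes for the c-ring subunit, Atp5g3 was at 832 and 733 in YTcKO+H151 libraries, 848 and 843 in YTcKO libraries and 784 and 733 in Control libraries and passed no test, and neither did Atp5g1. Atp5g2 had 20 to 43 reads per library and a change of -0.50 ± 0.20 (adjusted p = 0.0667) in YTcKO against Control.

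**Figure D3:**
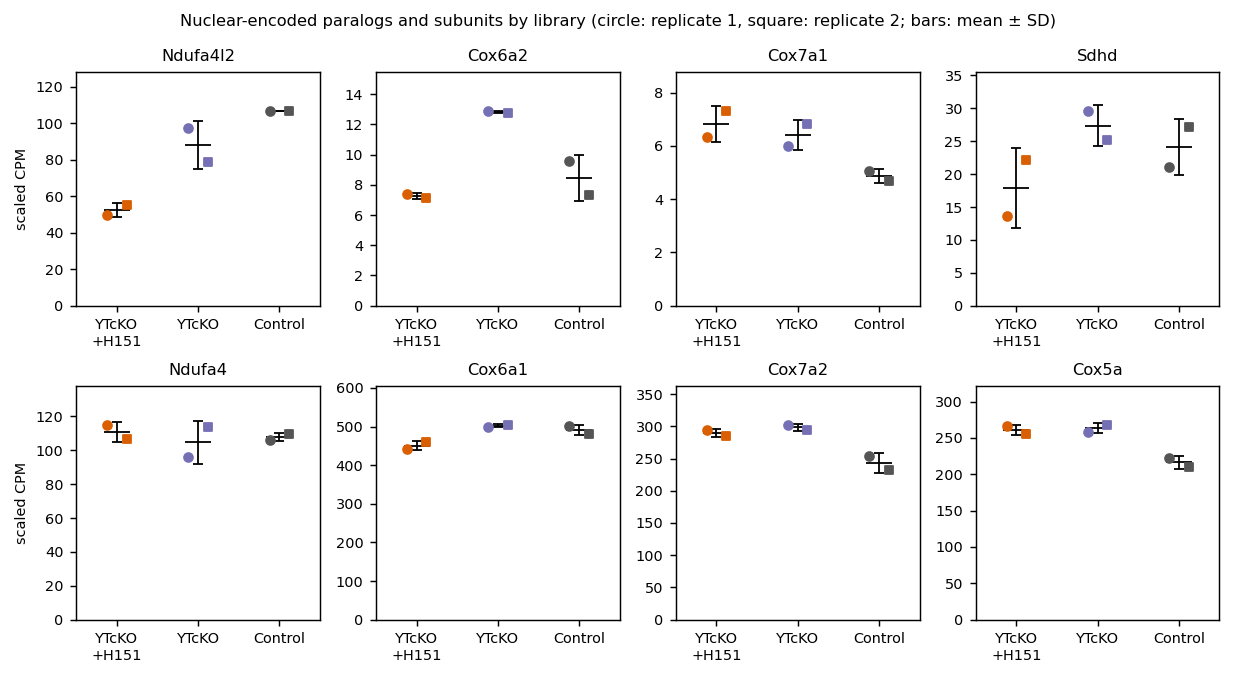
Levels in scaled CPM of 8 nuclear-encoded subunit genes in each library (points), with the mean and SD of each group of 2 (bars). Ndufa4l2 lies at 49.8 and 55.3 in YTcKO+H151 libraries, below all others, and Cox6a2 at 12.9 and 12.8 in YTcKO libraries, above all others, while Cox5a and Cox7a2 are lowest in Control libraries.

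The summed nuclear level of each complex moved within narrow limits on the deposited scaling. The ratio of YTcKO to Control means was 1.07 for complex I, 1.07 for complex II, 1.0897 for complex III, 1.11 for complex IV and 1.08 for complex V. The ratio of YTcKO+H151 to YTcKO means was 0.979, 1.00, 1.01, 0.961 and 0.957 in the same order, and that of YTcKO+H151 to Control means was 1.05, 1.08, 1.10, 1.07 and 1.03. Differences between complexes were not tested.

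The promoters of the nuclear subunit genes were searched for 2 motifs that the symbol rule did not use. In RefSeq promoters of GRCm38.p6, 300 bases around the start, 67 of the 83 genes were found by symbol. The motif GCGCANGCGC, bound by NRF1, a regulator of respiratory genes, occurred on either strand in 17 of 67 (25.4%), against 5.19% of all symbols. The motif CCGGAAG, bound by ETS factors such as GABP, also occurred in 17 of 67 (25.4%), against 9.93% of all symbols. Either motif was found in 30 of the 67 genes, both in 4 and neither in 37. Neither motif contains the other. The 27025 symbols compared include genes absent from the deposited table, and the shares were not set against expressed genes only. A match describes the sequence and is not evidence of binding in these cells. Of the genes that rose in YTcKO against Control, Cox5a, Cox5b, Cox7a2, Cox7c and Ndufb1-ps had no match to either motif. Ndufa6 matched the first motif, and Sdhb, Ndufb6 and Atp5md matched the second. Uqcrc2, Cox6a2 and Atp5mpl also rose but were not among the 67 genes found, so their promoters were not searched. A relation between motif and change was not tested. The promoters of Ndufa6 and Sdhb are shown as examples of a match, chosen after their values were seen. The matched motif is in capitals, 5' to 3' along each gene. The match in Ndufa6 is to the reverse complement of the first motif.
Ndufa6, chr15:82354242-82354541, minus: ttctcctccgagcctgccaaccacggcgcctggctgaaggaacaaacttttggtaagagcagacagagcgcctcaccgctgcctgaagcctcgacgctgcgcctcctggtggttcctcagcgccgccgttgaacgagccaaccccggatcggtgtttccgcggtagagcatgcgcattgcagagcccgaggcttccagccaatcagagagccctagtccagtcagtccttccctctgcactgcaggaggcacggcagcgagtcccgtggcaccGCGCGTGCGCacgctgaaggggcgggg
Sdhb, chr4:140961021-140961320, plus: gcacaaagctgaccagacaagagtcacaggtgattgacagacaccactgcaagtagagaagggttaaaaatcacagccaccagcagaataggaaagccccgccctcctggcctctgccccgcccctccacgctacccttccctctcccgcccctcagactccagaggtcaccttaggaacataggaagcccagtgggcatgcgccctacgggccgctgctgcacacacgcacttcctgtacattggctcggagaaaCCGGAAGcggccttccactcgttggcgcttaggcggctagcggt

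Other mitochondrial genes were counted by function, and most of these lists had a smaller share called than the 32.4% of all genes in YTcKO against Control, 40.8% in YTcKO+H151 against YTcKO and 22.9% in YTcKO+H151 against Control. The list of mitochondrial RNA processing and stability had 22 genes tested, of which 5 rose and 1 fell in YTcKO against Control (median 0.03), 5 fell in YTcKO+H151 against YTcKO (median -0.08), and 0 were called in YTcKO+H151 against Control, where 4 had an unadjusted p under 0.05, edgeR called 1 and DESeq2 called 0. The share called was 27.3% in YTcKO against Control and 22.7% in YTcKO+H151 against YTcKO, both below that of all genes. With scaling to total reads the counts were 2 higher and 4 lower, and 5 higher and 3 lower, in the first 2 comparisons. The 5 rises became 2 without Control replicate 2 or YTcKO replicate 1 and 3 without YTcKO replicate 2, and the 5 falls became 2 and 3 without YTcKO replicate 1 and 2. Pnpt1, the interferon-inducible RNA-degrading polynucleotide phosphorylase of mitochondria, was at 8.82 and 9.13 scaled CPM in YTcKO+H151 libraries, 55.2 and 42.8 in YTcKO libraries and 8.97 and 11.5 in Control libraries. YTcKO stood far above both other groups, which overlapped. It fell by 2.32 ± 0.15 on the log2 scale (adjusted p = 2.06e-09) in YTcKO+H151 against YTcKO, rose by 2.15 ± 0.15 (adjusted p = 6.34e-09) in YTcKO against Control, and differed by -0.16 ± 0.15 (adjusted p = 0.482) in YTcKO+H151 against Control. Ptcd1, which binds mitochondrial leucine tRNAs, had changes of -0.51 (adjusted p = 0.00527) and 0.58 (adjusted p = 0.00253) in the same comparisons. Slirp, which stabilises mitochondrial mRNAs together with LRPPRC, had -0.28 (adjusted p = 0.00864) and 0.30 (adjusted p = 0.00806). The calls of Slirp were lost without either YTcKO library (adjusted p from 0.0622 to 0.0814), the rise also without Control replicate 2 (0.136) and the fall without YTcKO+H151 replicate 2 (0.0567). The fall of Ptcd1 was lost without YTcKO replicate 1 (0.0679) or YTcKO+H151 replicate 1 (0.0738). Rexo2, a mitochondrial oligoribonuclease and the list member with the highest mean, had -0.20 (adjusted p = 0.0485) in YTcKO against Control, with 0.123 to 0.226 without any one Control or YTcKO library. The YTcKO libraries enter both comparisons.

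The assembly factors had 51 genes tested, of which 6 rose and 3 fell in YTcKO against Control, 10 rose and 4 fell in YTcKO+H151 against YTcKO, and 2 rose and 1 fell in YTcKO+H151 against Control. The shares called, 17.6%, 27.5% and 5.88% in this order, were below those of all genes. The 6 rises became 3 without Control replicate 2 or YTcKO replicate 2 (4 without YTcKO replicate 1), and the 10 became 5 without either YTcKO library and 6 without YTcKO+H151 replicate 2. With scaling to total reads the first 2 counts became 3 and 18, and 21 and 3. The 3 with the smallest p in YTcKO against Control all serve complex IV. Cox17, a copper chaperone, was at 59.7 and 52.3 in YTcKO+H151 libraries, 85.6 and 82.7 in YTcKO libraries and 51.2 and 45.8 in Control libraries. YTcKO lay above both other groups without overlap. It fell by 0.58 ± 0.09 on the log2 scale (adjusted p = 6.04e-05) in YTcKO+H151 against YTcKO and rose by 0.78 ± 0.09 (adjusted p = 2.83e-06) in YTcKO against Control. Cox18, a membrane insertase for complex IV, fell by 1.47 ± 0.12 (adjusted p = 4.26e-08) and rose by 1.04 ± 0.12 (adjusted p = 3.28e-06) in the same comparisons, and Cox15, which makes heme a, fell by 0.62 ± 0.12 (adjusted p = 0.000447) and rose by 0.69 ± 0.12 (adjusted p = 0.000197). These calls held with each library left out and under each scaling. Atpif1, the inhibitor of ATP synthase and the gene of this list with the highest mean, had changes of -0.14 (adjusted p = 0.104) and 0.19 (adjusted p = 0.0462), the second of which was lost without either YTcKO library (0.176 and 0.21) or Control replicate 2 (0.374).

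The electron carrier list, which holds cytochrome c, cytochrome c1 and ubiquinone synthesis genes, had 15 genes tested, with 3 that rose and 1 that fell in YTcKO against Control, 2 and 2 in YTcKO+H151 against YTcKO, and 3 that rose in YTcKO+H151 against Control, shares of 26.7%, 26.7% and 20% that were below those of all genes. Pdss1, which makes the side chain of ubiquinone, fell by 1.06 ± 0.19 on the log2 scale (adjusted p = 0.00035) in YTcKO+H151 against YTcKO and rose by 0.97 ± 0.19 (adjusted p = 0.000992) in YTcKO against Control, at 2.42 and 2.63 in YTcKO+H151 libraries, 5.49 and 7.32 in YTcKO libraries and 2.85 and 2.67 in Control libraries. Coq2, which attaches that side chain, had changes of -0.50 (adjusted p = 0.00613) and 0.45 (adjusted p = 0.0152). Etfb, an electron transfer flavoprotein subunit and the list member with the highest mean, had 0.22 (adjusted p = 0.0209) and -0.25 (adjusted p = 0.0135). Coq2 lost the first call without YTcKO replicate 1 (0.0685) and the second without it (0.122) or without Control replicate 1 (0.0622) or 2 (0.0797). Etfb lost the first without YTcKO replicate 1 (0.066), YTcKO replicate 2 (0.121) or YTcKO+H151 replicate 2 (0.0537), and the second without any one Control or YTcKO library (0.0543 to 0.1).

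Of 18 genes for mtDNA replication and transcription, 1 rose and 1 fell in YTcKO against Control and in YTcKO+H151 against YTcKO, and 1 rose in YTcKO+H151 against Control, shares of 11.1%, 11.1% and 5.56%. Tfam, which packages and transcribes mtDNA, was at 33.5 and 32.0 in YTcKO+H151 libraries, 40.2 and 39.9 in YTcKO libraries and 31.9 and 29.8 in Control libraries. It fell by 0.28 ± 0.09 on the log2 scale (adjusted p = 0.0237) in YTcKO+H151 against YTcKO and rose by 0.37 ± 0.09 (adjusted p = 0.00625) in YTcKO against Control. The fall was lost without YTcKO replicate 1 (0.106), YTcKO replicate 2 (0.0943) or YTcKO+H151 replicate 2 (0.0897), the rise without Control replicate 2 (0.0679) or YTcKO replicate 1 (0.0515), and both with scaling to total reads. Mterf2, a mitochondrial transcription termination factor family member, had changes of 0.83 ± 0.17 (adjusted p = 0.00112) and -0.82 ± 0.17 (adjusted p = 0.00166) in the same comparisons. Polg, the mtDNA polymerase, rose by 0.32 ± 0.10 (adjusted p = 0.0374) in YTcKO+H151 against Control, a call lost without any one library other than YTcKO+H151 replicate 1 (adjusted p from 0.0609 to 0.244).

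Of 17 regulators of mitochondrial biogenesis, 3 rose and 3 fell in YTcKO against Control, 7 rose and 4 fell in YTcKO+H151 against YTcKO, and 3 rose and 2 fell in YTcKO+H151 against Control. The shares called were 35.3%, 64.7% and 29.4%, each above that of all genes. Without YTcKO replicate 2 the 7 and 4 became 3 and 2. Nrip1, a corepressor of oxidative genes, was at 99.6 and 94.6 in YTcKO+H151 libraries, 65.7 and 60.7 in YTcKO libraries and 83.0 and 85.3 in Control libraries, and rose by 0.61 ± 0.08 (adjusted p = 7.11e-06) in YTcKO+H151 against YTcKO and fell by 0.41 ± 0.08 on the log2 scale (adjusted p = 0.00055) in YTcKO against Control. Ppara, a fatty acid receptor, had 1.03 ± 0.23 (adjusted p = 0.00178) and -0.94 ± 0.23 (adjusted p = 0.00463) at levels of at most 2.63 scaled CPM. The coactivator genes Ppargc1a and Ppargc1b, named after their values were seen, rose in all 3 comparisons. Ppargc1a was at 11.7 and 10.6 in YTcKO+H151 libraries, 6.97 and 4.51 in YTcKO libraries and 3.70 and 2.59 in Control libraries, and rose by 1.56 ± 0.20 (adjusted p = 3.54e-05) in YTcKO+H151 against Control. Ppargc1b was at 19.9 and 15.01 in YTcKO+H151 libraries, 9.23 and 9.54 in YTcKO libraries and 6.48 and 5.98 in Control libraries, and rose by 1.34 ± 0.16 (adjusted p = 1.39e-05) in YTcKO+H151 against Control. In YTcKO against Control the 3 rises of this list became 0 without Control replicate 2 and 1 without either YTcKO library, and its counts with scaling to total reads were 1 higher and 4 lower.

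The remaining lists had 5.26% to 23.8% of their genes called, below the share of all genes except for the tricarboxylic acid cycle list in YTcKO+H151 against Control (23.8%). Of 21 genes of the tricarboxylic acid cycle and pyruvate entry, 1 rose and 1 fell in YTcKO against Control, 3 rose in YTcKO+H151 against YTcKO and 5 rose in YTcKO+H151 against Control, where Pdhb, a pyruvate dehydrogenase subunit, rose by 0.32 ± 0.08 (adjusted p = 0.00552). Of 19 carrier and import genes, 2 rose in YTcKO against Control, 1 rose and 3 fell in YTcKO+H151 against YTcKO, and 1 rose and 1 fell in YTcKO+H151 against Control, and Slc25a12, the aspartate-glutamate carrier, had -0.34 ± 0.09 (adjusted p = 0.00501, or 0.0599 without YTcKO replicate 2) in YTcKO+H151 against YTcKO and 0.56 ± 0.09 (adjusted p = 8.83e-05) in YTcKO against Control. Of 23 genes of mitochondrial dynamics, mitophagy and permeability, 1 rose and 2 fell in YTcKO against Control, 4 rose and 1 fell in YTcKO+H151 against YTcKO, and 4 rose and 1 fell in YTcKO+H151 against Control. The 4 rises against YTcKO became 1 without either YTcKO library and 2 without either YTcKO+H151 library, and the 4 against Control became 1 without either Control library or YTcKO+H151 replicate 2 and 2 without either YTcKO library. Bnip3, a hypoxia-induced mitophagy receptor, fell by 0.58 ± 0.08 on the log2 scale (adjusted p = 0.000115) in YTcKO+H151 against Control and by 0.48 ± 0.08 (adjusted p = 0.000324) in YTcKO against Control. Of 76 mitochondrial ribosomal protein genes, 5 rose and 4 fell in YTcKO against Control, 7 rose and 8 fell in YTcKO+H151 against YTcKO, and 1 rose and 3 fell in YTcKO+H151 against Control. The 7 that rose became 1 without YTcKO replicate 1, 4 without YTcKO replicate 2 and 3 without YTcKO+H151 replicate 2, and the 8 that fell became 4 without YTcKO replicate 2. With scaling to total reads the first 2 counts became 2 and 24, and 30 and 2. Mrpl13 had changes of -0.60 ± 0.08 (adjusted p = 1.23e-05) in YTcKO+H151 against YTcKO and 0.41 ± 0.08 (adjusted p = 0.000721) in YTcKO against Control, while Mrps6 had 0.65 ± 0.09 (adjusted p = 3.31e-05) and -0.44 ± 0.09 (adjusted p = 0.00158).

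**Figure D4:**
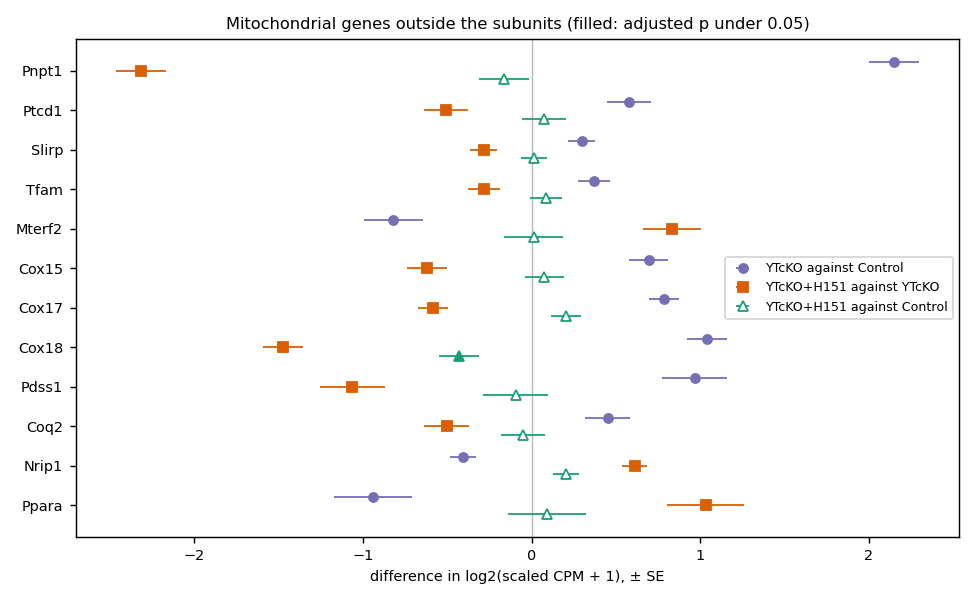
Difference in log2(scaled CPM + 1), with its SE, of 12 mitochondrial genes outside the subunits in the 3 comparisons (filled symbols where the adjusted p is under 0.05). Pnpt1 stands at 2.15 in YTcKO against Control, -2.32 in YTcKO+H151 against YTcKO and -0.16 in YTcKO+H151 against Control, and Ppara, Nrip1 and Mterf2 have the opposite signs in the first 2 comparisons, which share the YTcKO libraries.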

How the data were processed

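The authors deposited 1 scaled signal value per gene and library, in effect CPM with an effective library size. STAR 2.5.3a, featureCounts, edgeR and the mm10 build are named per the submitters' processing notes; the annotation, strand setting and filter are not given in the sources used here. The test planned for CPM was kept for this unit. Values were whole multiples of 1 read within a tolerance of 0.0006 (100.0% of values), 1 read being worth 0.0625 to 0.0871 scaled CPM, which recovered reads for count tests. All 6 columns were used.

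The 13648 genes that reached 1 scaled CPM in 2 or more libraries were tested (58 did not) on log2(scaled CPM + 1) with limma 3.58.1 in R 4.3.3, with 1 mean per group and a variance trend (3 residual degrees of freedom, 15.7 after moderation), with Benjamini-Hochberg adjustment over all 13648. A number after ± is the SE of a change or the SD of libraries, and confidence intervals are at 95%. The script was tested on simulated data with planted changes larger than most reported here. That test does not measure how well small changes are called. The alternatives tried were a pseudocount of 0.25 or 4, no filter, a mean of at least 10, 3 scalings, no variance trend, a replicate block, each library left out, and edgeR 4.0.16 and DESeq2 1.42.0 on the reads. A crossed replicate block was added after seeing the data. Each fit with a library left out has 1 library in that group and less power, so a lost call does not trace the call to that library.

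The members and gene lists were chosen with earlier results of these data known. Named members are every mtDNA gene, paralog sets, and per complex the gene with the highest mean and the largest rise and fall called in each comparison. Named list genes are the 3 with the smallest p in YTcKO against Control and the 1 with the highest mean; genes outside this rule are marked. Positions are from GENCODE M21 or RefSeq on GRCm38, and near-identical copies were sought with BLAST 2.17.0 in the annotated transcripts. Reads without molecular identifiers are not independent molecules.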

Additional observations from a re-analysis of the deposited data

How the results depend on the processing

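Of 37 called changes of named members, 9 kept their call in every alternative that tested them (18, or 17 for Cox6a2, which a mean of at least 10 left out), and the direction reversed for Ndufb1-ps (0.0208, nuclear-total scaling) and Atp5b (0.0094 with total-count and 0.0471 with nuclear-total scaling), both in YTcKO+H151 against YTcKO. In that comparison the median change of all genes tested was 0.02 on the deposited scaling. It was 0.18 with total-count and 0.21 with nuclear-total scaling. Why the scalings differ was not tested. Of the 37, 23 were lost without a variance trend, 10 with DESeq2, 9, 8 and 9 with median, total-count and nuclear-total scaling, 19 and 15 without YTcKO replicate 2 and 1, 18 and 7 without Control replicate 2 and 1, and 4 or 5 without a YTcKO+H151 library.

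In YTcKO against Control the count of mtDNA genes that rose, 1, was 0 with a mean of at least 10, median, total-count or nuclear-total scaling, no variance trend, pseudocount 4 or the replicate block, 2 with edgeR and 0 to 2 with a library left out; 1 fell with total-count or nuclear-total scaling. In YTcKO+H151 against YTcKO the 5 that rose were 3 without a variance trend and 1 to 6 with a library left out, and the count that fell was 1 without a trend and 0 to 1 with a library left out. In YTcKO+H151 against Control the 1 that fell was 0 with a mean of at least 10 and 0 to 1 with a library left out.

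Nuclear genes that rose in YTcKO against Control, 12, were 7 with DESeq2, 6, 2 and 1 with median, total-count and nuclear-total scaling, 2 without a trend and 2 to 20 with a library left out, and the 1 that fell was 0, 3, 6 and 7 with DESeq2 and those scalings and 0 to 2 with a library left out. In YTcKO+H151 against YTcKO the 2 that rose were 4, 30 and 37 with those scalings, 1 without a trend and 1 to 5 with a library left out, and the 7 that fell were 4 with DESeq2, 3, 3 and 2 with the scalings, 2 without a trend and 2 to 11. In YTcKO+H151 against Control the 8 that rose were 4 with DESeq2, 5 with median and 16 with nuclear-total scaling, 0 without a trend and 1 to 12 with a library left out, and the 1 that fell was 1 to 3.

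Replicate numbers did not pair the libraries: same-numbered libraries' deviations correlated at -0.07, -0.13 and 0.15 between groups. With the replicate block the nuclear counts were 11 and 1, 2 and 6, and 7 and 1 in the order of comparisons above, and 4 of the 37 calls were lost. Crossing the YTcKO numbers gave 25 and 1, 5 and 12, and 16 and 2, and 2 mtDNA genes that rose in YTcKO against Control. Depth limits the genes with few reads, such as Cox4i2 (5 to 22 reads per library) and Atp5g2 (20 to 43).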
